A study of Mus musculus with 25 samples.

Results

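The genes described here are 6 members of the mouse Ly6 family of cell surface proteins: Ly6i, Ly6a, Ly6c1, Ly6c2, Ly6e and Ly6d. They are 6 of the 55450 genes in the deposited count table. The choice was selected on measured values: Ly6i was among the genes with the largest rise in tumours that grew under anti-CTLA-4 treatment relative to control tumours, and the other 5 were added as its relatives. In that contrast Ly6i had the 2nd highest log2 fold change (6.00) of the 2300 genes that were called higher or lower and averaged at least 1 CPM (counts per M counts, scaled between libraries), between Gzmg at 7.03 and Chil3 at 5.87. Values of non-responders against controls therefore chose the family and are given below as a description, with no test.

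The tumours grew in C57BL/6 mice implanted with B2905, a mouse melanoma line also called M4, and 1 RNA library was sequenced from each of 25 tumours. CTLA-4 is a receptor that restrains T cells, and 20 of the tumours came from mice given an antibody against it at 10 mg/kg. The 5 control tumours came from mice given an isotype IgG2b antibody at the same dose. Of the anti-CTLA-4 tumours, 8 responders shrank, 6 stable tumours held their size and 6 non-responders went on growing, as judged 10 to 11 days after the last dose. All 25 carried the same implanted line, treatment started at a mean tumour size of 75 mm3, and antibody was given 2 times a week for 2 weeks. Neither age nor sex of the mice is stated in the sources used here. Tumours were whole pieces of tissue, so fewer cells of a type and less RNA per cell cannot be told apart in any value below.

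Ly6 proteins are small and mostly held at the outer face of the cell membrane by a lipid anchor, and they share a cysteine-rich fold with the urokinase receptor. Several are used as flow cytometry markers of blood and immune cells, and several are induced by interferons. Ly6a encodes Sca-1, a marker of blood stem and progenitor cells that activated T cells also carry. Ly6c1 and Ly6c2 together encode the Ly-6C antigen, which is high on inflammatory monocytes and is also found on T cells and endothelium. Ly6e is an interferon-inducible gene that affects virus entry, Ly6d marks lymphoid progenitors committed to the B lineage and is also made in stratified epithelium, and Ly6i is a close relative of Ly6a.

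All 6 genes lie on chromosome 15 (GRCm38, GENCODE M21 annotation), and all are annotated as protein-coding. From low to high coordinate they are Ly6d (ENSMUSG00000034634.7, chr15:74762056-74763620, minus strand), Ly6e (ENSMUSG00000022587.14, chr15:74955051-74959905, plus strand), Ly6i (ENSMUSG00000022586.11, chr15:74979534-74983430, minus strand), Ly6a (ENSMUSG00000075602.10, chr15:74994877-74998031, minus strand), Ly6c1 (ENSMUSG00000079018.10, chr15:75044018-75048830, minus strand) and Ly6c2 (ENSMUSG00000022584.14, chr15:75108158-75111970, minus strand).

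How well reads can be assigned to each gene depends on how alike the sequences are. The coding sequences of Ly6c1 and Ly6c2 were identical at 387 of 396 aligned bases (97.73%), with a longest identical run of 188 bases. Ly6i and Ly6a were identical at 350 of 405 bases (86.42%). Ly6e and Ly6d shared between 50.8% and 58.7% of aligned bases with the other members and with each other. The first 90 bases of the annotated coding sequences of both close pairs are shown because they hold 6 of the 9 differing bases of Ly6c1 and Ly6c2, with capitals at every base that differs from the paired gene.
Ly6c1: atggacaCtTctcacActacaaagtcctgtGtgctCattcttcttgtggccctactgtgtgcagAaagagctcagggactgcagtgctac
Ly6c2: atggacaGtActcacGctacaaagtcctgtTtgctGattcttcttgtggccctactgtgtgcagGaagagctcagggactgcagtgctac
Ly6i: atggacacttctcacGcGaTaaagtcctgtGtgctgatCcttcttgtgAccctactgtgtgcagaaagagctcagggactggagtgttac
Ly6a: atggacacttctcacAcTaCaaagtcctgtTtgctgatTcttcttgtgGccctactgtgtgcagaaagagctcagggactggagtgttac

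Over the full transcripts, 36.7% of the 50-base words of Ly6c1 and 33.0% of those of Ly6c2 occurred in another annotated gene, mainly in each other. The share was 10.0% for Ly6a, 4.97% for Ly6i and 0 for Ly6e and Ly6d. Estimated counts that were not whole numbers, which arise when the counting program divides reads between genes, were most frequent in the same 2 genes. They occurred in 25 of 25 tumours for Ly6c2, 24 for Ly6c1, 21 for Ly6a, 14 for Ly6i and none for Ly6e and Ly6d. The split between Ly6c1 and Ly6c2 is therefore an estimate, and low values of Ly6i and Ly6a are also uncertain.

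Promoter sequences from RefSeq (GRCm38.p6) were matched for 2 of the 6 members, Ly6c1 and Ly6c2. They are shown because these close copies differ far more in front of the gene than in their coding sequences. In the 250 bases before the annotated start, 164 of 216 aligned bases were identical (75.93%). Capitals mark the only matches to the 4 motifs searched on both strands, the core promoter box TATAAA in Ly6c1 and the ETS factor core GGAAGT in Ly6c2.
Ly6c1 promoter, chr15:75048838-75049087, minus strand: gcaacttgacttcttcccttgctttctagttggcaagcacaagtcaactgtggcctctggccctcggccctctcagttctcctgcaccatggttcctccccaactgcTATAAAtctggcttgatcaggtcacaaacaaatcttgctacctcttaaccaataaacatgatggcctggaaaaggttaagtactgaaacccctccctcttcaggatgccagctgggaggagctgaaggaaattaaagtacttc
Ly6c2 promoter, chr15:75111972-75112221, minus strand: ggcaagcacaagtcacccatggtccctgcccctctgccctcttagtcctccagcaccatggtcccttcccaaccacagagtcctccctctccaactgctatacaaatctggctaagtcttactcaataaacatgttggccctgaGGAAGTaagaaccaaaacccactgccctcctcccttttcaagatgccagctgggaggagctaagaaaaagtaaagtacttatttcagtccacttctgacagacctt

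TATAAA occurred in 12.4% and GGAAGT in 19.7% of 32851 RefSeq promoter windows of the same length. The interferon gamma activated site TTCNNNGAA occurred in 7.02% and the core of the interferon-stimulated response element in 2.98%, and neither had a match in these 2 windows. A match describes letters and not a bound site.

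Libraries held between 8.76 and 34.3 M counts, with 18032 genes tested, and all 6 members passed the filter on low counts. Protein-coding genes took 82.9% to 89.2% of counts in the 17 control, non-responder and stable libraries, and 23.8% to 87.0% in the responders (median 68.8%). That share was under 60% in responders 1 and 4, so values without both are given where a call depends on them. The labels number the libraries group by group and do not say what the numbers stand for. Anything that followed these numbers could not be told apart from group. Melanocyte genes summed to between 10680 and 17510 CPM in controls and between 726 and 14060 CPM in non-responders. In the stable group the sum was 228 to 505 CPM, and among responders 304 to 725 CPM. Whether this sum follows the number of cells of the implanted line or their level of these genes was not tested.

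Ly6i, the gene that led to the choice, was close to undetected in control tumours and present in every treated tumour. Control tumours 1 to 5 had 0, 0.332, 0.391, 0.192 and 1.45 CPM, from 54.0 counts in all 5 libraries together. In control 1 the count of 0 allows up to 0.1 CPM (3 counts), while the deposited RPKM value of the same tumour was 1.08, so the 2 tables differ at this level. Non-responders 1 to 6 had 9.01, 1.99, 1.03, 19.6, 17.9 and 116 CPM, a 113-fold range. Stable tumours lay between 54.9 and 96.2 CPM (median 75.4, n = 6), and responders between 25.0 and 102 CPM (median 37.3, n = 8). Every stable tumour and every responder was above every control, while non-responder 3 lay below control 5. Non-responders reached from the control range to above the highest stable tumour and responder.

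Ly6a was measured in every tumour and was highest in stable tumours. Controls 1 to 5 had 28.4, 59.5, 31.7, 34.4 and 64.0 CPM. The lowest, median and highest values were 50.5, 133 and 325 CPM in non-responders. Stable tumours had 184, 266 and 331 CPM, and responders 57.0, 99.7 and 277 CPM. All 6 stable tumours, 7 of 8 responders and 4 of 6 non-responders were above every control.

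Ly6c1 had its highest median in stable tumours. In controls 1 to 5 it was at 10.9, 19.7, 10.4, 10.5 and 11.8 CPM. Non-responders had a lowest, median and highest value of 11.9, 21.7 and 38.1 CPM, stable tumours 18.9, 48.4 and 70.5 CPM, and responders 8.10, 16.4 and 45.7 CPM. Responders spanned the whole control range, with 3 above every control and 2 below every control.

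Ly6c2, the near copy of Ly6c1, was low in controls, at 3.20, 5.82, 2.11, 2.44 and 10.1 CPM. Its lowest, median and highest values were 6.88, 27.4 and 67.5 CPM in non-responders. Stable tumours had 38.3, 51.7 and 72.5 CPM, and responders 9.08, 22.6 and 71.2 CPM. Control 5 was the highest control for Ly6c2 as for Ly6i, and only responder 4 and non-responders 2 and 3 lay within the control range.

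Ly6e had the highest counts of the 6 and the narrowest spread. Controls 1 to 5 had 78.0, 137, 83.0, 94.4 and 141 CPM. In non-responders the lowest, median and highest values were 125, 311 and 370 CPM, in stable tumours 302, 340 and 390 CPM, and in responders 107, 208 and 360 CPM. The stable tumours had a coefficient of variation of 10.7%, against 39.8% in responders and 37.9% in non-responders.

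Ly6d stood apart from the other 5, with large differences between tumours of 1 group and no order of the groups beyond that spread. Controls 1 to 5 had 0.333, 2.25, 13.1, 2.05 and 0.414 CPM. Values ran from 0.473 to 6.44 CPM in non-responders (median 2.48), from 1.68 to 10.1 CPM in stable tumours (median 3.17) and from 0.537 to 22.2 CPM in responders (median 2.62). The groups overlapped fully, and the lowest library held 8 counts of Ly6d.

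**Figure D1:**
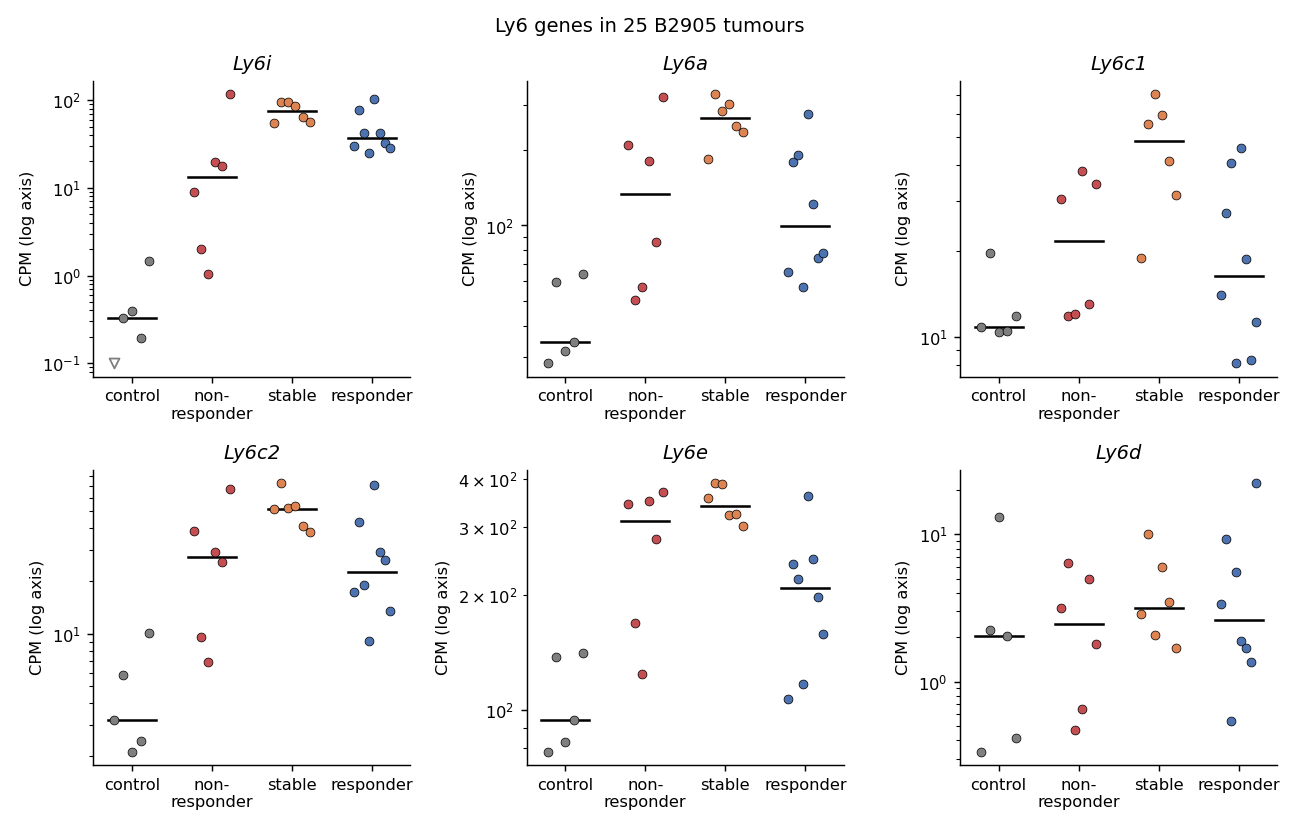
CPM of the 6 Ly6 genes (log axis) in each of 25 tumours, grouped as control (n = 5), non-responder (n = 6), stable (n = 6) and responder (n = 8). Points are tumours, horizontal lines are group medians, and the open triangle marks the control with 0 counts of Ly6i, drawn at 0.1 CPM. Stable tumours form the tightest and highest group for Ly6i, Ly6a, Ly6c2 and Ly6e, and the Ly6d groups overlap.

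By group mean, the order from high to low was stable, responder, non-responder, control for Ly6i, and stable, non-responder, responder, control for Ly6a, Ly6c1, Ly6c2 and Ly6e. For Ly6d it was responder, stable, control, non-responder. Neighbouring means in that order differed by more than the larger of both SDs for stable against responder in Ly6i, for stable against non-responder in Ly6a and Ly6c1, and for responder against control in Ly6a, Ly6c2 and Ly6e. All other neighbours, among them every pair for Ly6d, differed by less than that. Ranges of neighbouring groups overlapped in every case.

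Levels of different genes can be set side by side only per length, on the deposited RPKM scale (reads per kilobase of gene per M reads). Summed over the 6 genes, RPKM ran from 73.4 to 147 in the control group and 122 to 642 among non-responders. Stable tumours had sums of 465 to 690, and responders 168 to 620. Ly6e took 42.0 ± 3.07% of that sum in controls (SD, n = 5) and 26.4 ± 4.11% in stable tumours (SD, n = 6). The Ly6i share was 2.13 ± 0.544% for the control group, 6.11 ± 4.68% for non-responders, 12.3 ± 1.06% for the stable group and 14.1 ± 1.93% for responders (SD). Ly6a held between 33.7% and 40.5% of the sum on average in every group. Mean shares of Ly6i and Ly6c2 were thus higher, and those of Ly6e and Ly6c1 lower, in stable tumours and responders than in controls, with no test. The mean Ly6c1 share was 11.5% in controls, 8.41% in stable tumours and 7.72% in responders. For Ly6a it was 33.7%, 40.5% and 35.9%.

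**Figure D2:**
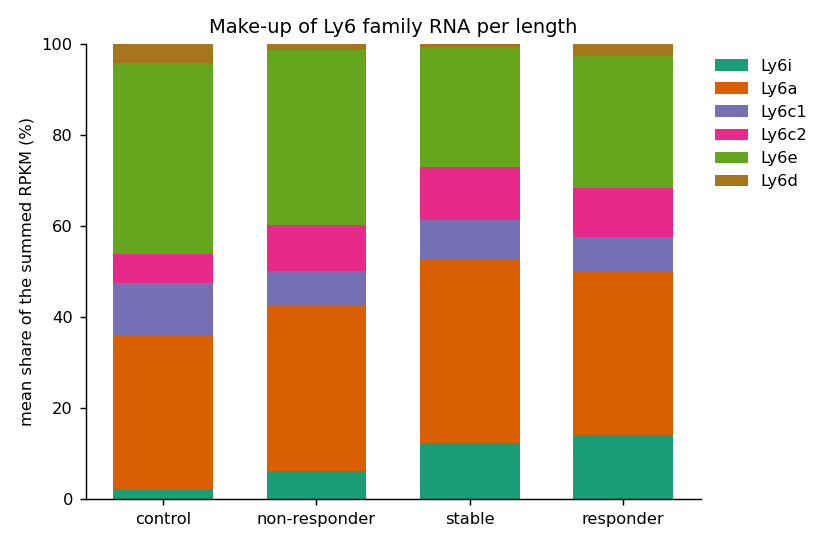
Mean share (%) of each Ly6 gene in the summed RPKM of the 6 genes, per group (n = 5 control, 6 non-responder, 6 stable, 8 responder). Each bar adds to 100%. Ly6i grows from 2.13% in controls to 14.1% in responders, and Ly6e goes from 42.0% to 29.0%.

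Responders were compared with stable tumours first, because neither group entered the contrast that chose the family. Ly6a, Ly6c1 and Ly6e were lower in responders, and the other 3 did not pass the test. The log2 fold change was -1.02 for Ly6a (SE 0.39, adjusted p = 0.0412), -1.08 for Ly6c1 (SE 0.39, adjusted p = 0.0335) and -0.75 for Ly6e (SE 0.25, adjusted p = 0.0218), by edgeR's quasi-likelihood test with Benjamini-Hochberg adjustment over all 18032 genes. Ly6i (-0.66, SE 0.67, adjusted p = 0.447), Ly6c2 (-0.84, SE 0.46, adjusted p = 0.149) and Ly6d (0.41, SE 0.80, adjusted p = 0.706) were not separated from 0 by edgeR. Thus 3 of 6 members were called, all lower, where 38.2% of all tested genes were called and 17.8% were lower (20.5% higher). No member had ranges that did not overlap, against 0.288% of genes lower and 0.427% higher. Below every stable tumour lay 6 of 8 responders for Ly6a, 5 for Ly6c1 and 7 for Ly6e.

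The calls between responders and stable tumours did not hold in every setting. Ly6a missed the threshold in edgeR with the stricter filter on low counts (adjusted p = 0.0502) and with protein-coding genes only (adjusted p = 0.0568), and Ly6c1 with only the 2 groups compared in the fit (adjusted p = 0.0634). With protein-coding share added to the edgeR model, the 3 log2 fold changes were -0.42, -0.52 and -0.25 and none was called. In that model 0 of 18032 genes were called, although 2296 had an unadjusted p under 0.05, while DESeq2 without the share called 7357 genes and the same 3 members. Without responders 1 and 4, none of the 6 was called and the values were -0.79 for Ly6a, -0.87 for Ly6c1 and -0.56 for Ly6e. Among the 8 responders, log2 CPM correlated with the protein-coding share at r = 0.88 for Ly6e, 0.77 for Ly6a, 0.67 for Ly6i, 0.58 for Ly6c1, 0.57 for Ly6c2 and -0.15 for Ly6d, as a description. The part of this share in the result was not tested beyond these fits.

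Both the stable tumours and the responders were next set against the controls, which are 1 arm of the contrast that chose the family. Ly6i is therefore given by value alone. In stable tumours Ly6a, Ly6c1, Ly6c2 and Ly6e were all higher, with log2 fold changes of 2.60 (SE 0.47, adjusted p = 0.000106), 1.87 (SE 0.46, adjusted p = 0.00208), 3.45 (SE 0.59, adjusted p = 4.99e-05) and 1.70 (SE 0.29, adjusted p = 5.73e-05) by edgeR. Ly6d had 0.26 (SE 0.89, adjusted p = 0.85) by edgeR, and Ly6i had 7.45 (SE 1.10). So 4 of 5 tested members were called, where 41.8% of all genes were called and 22.2% were higher (19.6% lower). The ranges of stable tumours and controls did not overlap for Ly6i, Ly6a, Ly6c2 and Ly6e, as was the case, in the higher direction, for 18.3% of all genes (17.2% in the lower direction). For Ly6c1, 5 of 6 stable tumours were above every control.

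In responders Ly6a, Ly6c2 and Ly6e were higher than in controls, and Ly6c1 and Ly6d did not pass. Log2 fold changes were 1.58 for Ly6a (SE 0.44, adjusted p = 0.00306), 2.62 for Ly6c2 (SE 0.55, adjusted p = 0.000267), 0.95 for Ly6e (SE 0.27, adjusted p = 0.00424), 0.79 for Ly6c1 (SE 0.43, adjusted p = 0.108) and 0.67 for Ly6d (SE 0.86, adjusted p = 0.502) by edgeR. Ly6i had 6.78 (SE 1.06). These 3 of 5 calls stand beside 65% of all genes called, 36.1% higher and 28.9% lower, so the share of members called is near that of genes in general. Only Ly6i had ranges that did not overlap, as 14.9% of genes did in the higher direction and 15.2% in the lower. Ly6c1 was called in edgeR with the protein-coding share in the model (1.37, adjusted p = 0.0204) and without responders 1 and 4 (1.02, adjusted p = 0.0467), and Ly6d was called without control 3 (2.174, adjusted p = 0.039).

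For Ly6i the size of the difference from controls depended on the table. On log2(RPKM + 1) its difference was 4.399 in stable tumours, 3.72 in responders and 2.35 in non-responders, and counts gave 7.45, 6.78 and 6.00. A pseudocount compresses low values, but with 0.1 in place of 1 the difference was still only 4.88 in stable tumours and 4.188 in responders. Control RPKM values of 1.08 to 4.24 went with 0 to 1.45 CPM, so the 2 tables themselves differ for this gene. The cause was not tested.

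In the contrast that chose the family, non-responders minus controls, 5 of the 6 members had a positive log2 fold change, and 13.9% of all genes were called, 10.6% higher and 3.29% lower. No member's ranges were apart, against 2.67% of genes higher and 1.41% lower, and nothing is read from these shares because this contrast chose the family. The values were 6.00 for Ly6i, 1.80 for Ly6a, 0.88 for Ly6c1, 2.65 for Ly6c2, 1.35 for Ly6e and -0.32 for Ly6d. Without non-responder 6 the value of Ly6i was 4.52, and without control 5 it was 6.92.

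None of the 5 tested members separated non-responders from the other treated groups. Against non-responders, responders had log2 fold changes of -0.21 for Ly6a, -0.09 for Ly6c1, -0.04 for Ly6c2, -0.40 for Ly6e and 0.99 for Ly6d, with adjusted p between 0.18 and 0.955 by edgeR, where 48.9% of all genes were called, 25.2% higher and 23.8% lower. None had an unadjusted p under 0.05, and DESeq2 called none of the 5. Stable tumours had log2 fold changes against non-responders of 0.81 for Ly6a, 0.99 for Ly6c1, 0.80 for Ly6c2, 0.35 for Ly6e and 0.58 for Ly6d, with adjusted p between 0.118 and 0.702 by edgeR, where 14.9% of genes were called, 7.08% higher and 7.86% lower. Of these only Ly6c1 was under 0.05 before adjustment, and DESeq2 called none. In both comparisons the ranges of all members overlapped, while ranges were apart for 2.07% of genes in the higher and 2.94% in the lower direction. SEs from 0.25 to 0.86 leave room for differences of either sign in most of them. Ly6i had 0.78 (SE 0.69) in responders and 1.45 (SE 0.74) in stable tumours against non-responders, and 2.26 and 2.93 without non-responder 6. Without that tumour Ly6a was called between stable tumours and non-responders (1.19, adjusted p = 0.0435), and without responder 5 Ly6e was called between responders and non-responders (-0.57, adjusted p = 0.0461), both by edgeR.

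**Figure D3:**
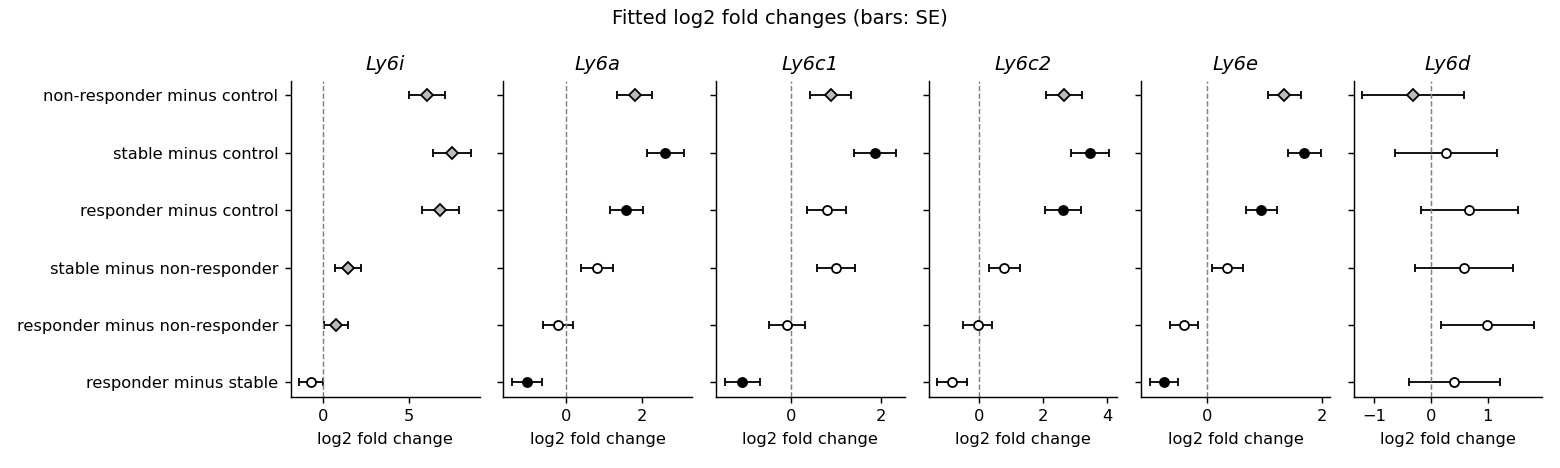
Fitted log2 fold changes with SE bars for 6 Ly6 genes in 6 comparisons of the 4 tumour groups, each panel on its own horizontal scale. Filled circles passed an adjusted p of 0.05, open circles did not, and grey diamonds are values given with no test. Differences from controls are 6.00 to 7.45 for Ly6i, which was chosen on this difference, and 2.62 to 3.45 for Ly6c2.

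The ratio of Ly6c2 to Ly6c1 within a library does not depend on library scaling, and it differed between treated and control tumours. Control tumours 1 to 5 had log2 ratios of -1.77, -1.76, -2.30, -2.10 and -0.22, so Ly6c1 was the more abundant by counts in each. The control mean was -1.63 ± 0.82 (SD, n = 5). Means were 0.13 ± 0.75 for non-responders (SD, n = 6), 0.25 ± 0.65 for the stable group (SD, n = 6) and 0.41 ± 0.77 for responders (SD, n = 8). Responders exceeded controls by 2.04 (two-sided exact permutation p = 0.00155, adjusted p = 0.00777 over 5 comparisons), with 7 of 8 above every control. Stable tumours exceeded controls by 1.88 (exact permutation p = 0.00433, adjusted p = 0.0108), with 5 of 6 above every control. From the deposited RPKM values the differences were smaller, 1.325 for responders and 1.36 for stable tumours, each with an adjusted exact permutation p of 0.00583.

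Among treated groups the ratio did not separate. Responders differed from stable tumours by 0.15 (exact permutation p = 0.703) and from non-responders by 0.27 (exact permutation p = 0.519), and stable tumours from non-responders by 0.12 (exact permutation p = 0.777), with an adjusted p of 0.777 for each. Since reads of both genes are divided by the counting program, the size of the ratio rests on the part of each transcript that differs. Summed to 1 row, Ly6c1 and Ly6c2 together had log2 fold changes of 2.49 in stable tumours (adjusted p = 0.00012) and 1.54 in responders (adjusted p = 0.00304) against controls, and -0.95 in responders against stable tumours (adjusted p = 0.0496), by edgeR.

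**Figure D4:**
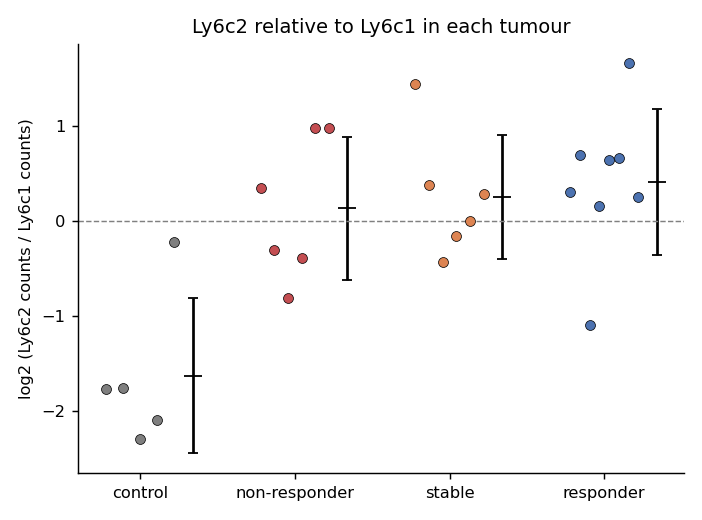
Log2 ratio of Ly6c2 to Ly6c1 estimated counts in each tumour, by group (n = 5, 6, 6 and 8). Points are tumours, bars show mean ± SD, and the dashed line marks equal counts. Of the controls 4 lie at -1.76 or lower and control 5 at -0.22, while group means of treated tumours lie between 0.13 and 0.41.

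Tumours of the same group also differed, and 5 of the members varied together there. After the group means were removed, log2 CPM correlated at r = 0.90 between Ly6c2 and Ly6e, 0.88 between Ly6a and Ly6e, 0.87 between Ly6a and Ly6c1 and 0.86 between Ly6a and Ly6c2 (n = 25 tumours, as a description). The lowest value among Ly6i, Ly6a, Ly6c1, Ly6c2 and Ly6e was 0.55, for Ly6i and Ly6c1. Ly6d lay between -0.20 and 0.05 with all 5. These points share library depth and composition.

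The same within-group values were compared with mean log2 CPM scores of 8 gene lists, and of 48 pairs 25 had an adjusted p under 0.05 by permutation within groups. With the 15 monocyte and macrophage genes, led by Lyz2 (a lysozyme of myeloid cells) and Csf1r (the receptor for colony stimulating factor), all 5 members other than Ly6d passed. Their r lay between 0.73 and 0.87, Spearman's rho between 0.76 and 0.93, the adjusted permutation p between 8e-05 and 0.000591, and r between 0.65 and 0.87 without the 2 tumours farthest from the median. For Ly6i that correlation was 0.96 within non-responders, 0.95 within stable tumours and 0.96 within responders. Ly6a, Ly6c1, Ly6c2 and Ly6e had lower values, 0.73 to 0.85 within non-responders and 0.83 to 0.91 within responders. Within stable tumours they had 0.82, 0.94, 0.53 and 0.51. All 15 genes were above 0 in every tumour, and their summed level was 828 to 1587 CPM for controls and 1342 to 9135 CPM for non-responders, against 6891 to 10450 CPM for the stable group and 2976 to 11450 CPM for responders. The part of these cells in the group differences of the Ly6 genes was not tested.

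The same 5 members passed with the interferon gamma list of 20 genes, among them Iigp1 (an interferon-induced GTPase). Over the 25 tumours r ran from 0.51 for Ly6c1 to 0.89 for Ly6i and rho from 0.56 to 0.79. The adjusted permutation p ran from 0.000336 to 0.0126, and r from 0.46 to 0.82 without 2 tumours. Taken alone, non-responders had r of 0.86 to 0.97 for these 5 members, stable tumours -0.05 to 0.59 and responders 0.34 to 0.62. For Ly6i these were 0.94, 0.50 and 0.43. The type I interferon list of 20 genes, led by Bst2 and Oasl2, both antiviral, passed with Ly6e alone (r = 0.57, rho = 0.55, adjusted permutation p = 0.034). That relation had r = 0.25 without non-responders 2 and 3 and so rests on those tumours. Neutrophil genes, of which 9 of 12 were tested, passed with the same 5 members (r 0.65 to 0.78), T cell genes with Ly6i, Ly6a, Ly6c2 and Ly6e (r 0.68 to 0.91), B and plasma cell genes with Ly6i, Ly6c2 and Ly6e (r 0.56 to 0.69) and endothelial genes with Ly6e alone (adjusted permutation p = 0.0144). With T cell genes, r within stable tumours alone was -0.13 for Ly6i, -0.46 for Ly6a, 0.32 for Ly6c2 and 0.68 for Ly6e. Tumours high for 1 of these lists were often high for others, so the lists are not separate measures.

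Ly6d followed keratinocyte genes alone. Its r with the 12 keratinocyte genes, led by Dsp (desmoplakin, of cell junctions) and Krt5 (a keratin of the basal epidermis), was 0.89 (rho = 0.88, adjusted permutation p = 8e-05) and 0.92 without the 2 farthest tumours, responders 3 and 5. It was 0.92 within non-responders, 0.93 within stable tumours and 0.83 within responders. The summed keratinocyte level was 17.4 to 1309 CPM for controls and 18.7 to 587 CPM for non-responders, against 27.1 to 581 CPM for the stable group and 6.96 to 2293 CPM for responders. No keratinocyte gene was at 0 in all tumours of a group, and the amount of skin in each piece was not tested.

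**Figure D5:**
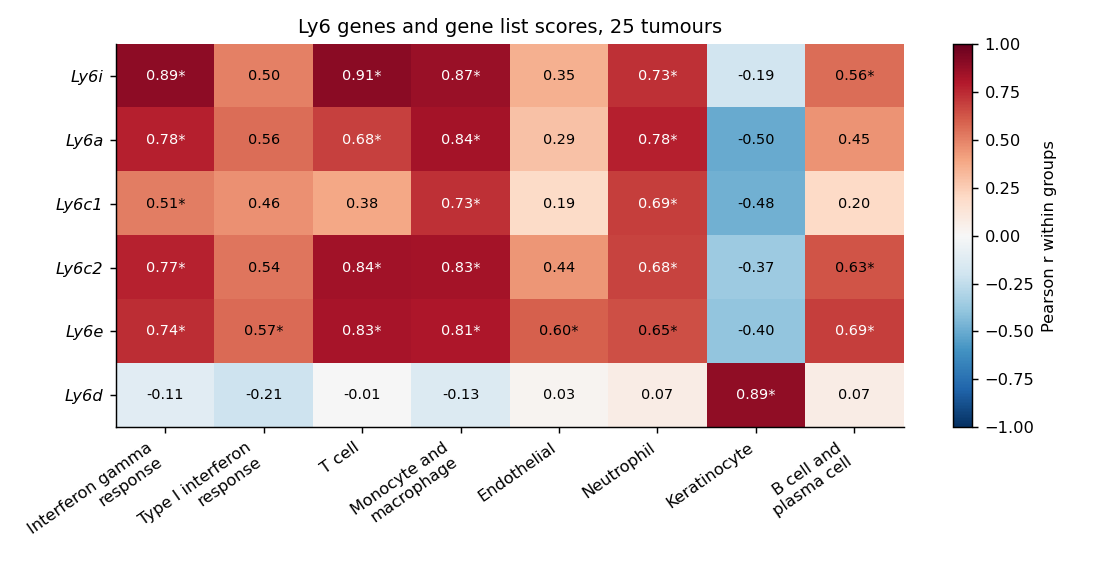
Pearson r within groups (n = 25 tumours, group means removed) between log2 CPM of each Ly6 gene (rows) and the mean log2 CPM of 8 gene lists (columns). Red is positive, blue is negative, and stars mark an adjusted permutation p under 0.05. Ly6d reaches 0.89 with keratinocyte genes, and the other 5 genes reach 0.73 to 0.87 with monocyte and macrophage genes.

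Between groups the list genes moved as follows. Against controls, all 20 interferon gamma genes were called higher in stable tumours and in responders, with median log2 fold changes of 2.83 and 2.13, beside 0.02 and 0.16 over all tested genes. Of the 15 monocyte and macrophage genes 15 rose in stable tumours and 11 in responders, with medians of 2.09 and 1.202. Over all tested genes 22.2% were called higher in stable tumours and 36.1% in responders. In responders against stable tumours 8 of 15 monocyte and macrophage genes and 8 of 20 interferon gamma genes were lower, where 17.8% of all tested genes were lower. The medians were -0.82 and -0.62 beside 0.01 over all genes. With the protein-coding share in the edgeR model, 0 genes of either list were called in that comparison. By edgeR no keratinocyte gene was called in these 3 comparisons and no T cell gene between responders and stable tumours. DESeq2 called 2 keratinocyte genes higher and 1 T cell gene lower in responders than in stable tumours, and 2 keratinocyte genes lower in responders than in controls.

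The genes whose profile over the 25 tumours was most like each member, among 13268 genes ranked by Pearson r of log2 CPM, are given as a description that includes the group differences. For Ly6i they were Fgr (0.99), Parvg (0.99) and Slc15a3 (0.99). For Ly6a they were Ifi211 (0.98), Shisa5 (0.97) and Serping1 (0.96), for Ly6c1 Pnp (0.91), Fcgr4 (0.91) and Usp25 (0.91), and for Ly6c2 Ifi209 (0.97), AI662270 (0.96) and Coro1a (0.96). For Ly6e they were Ms4a4d (0.96), Ly86 (0.96) and Ifi209 (0.95). For Ly6d they were Aqp3 (0.90), a water and glycerol channel of epithelia, Apoc1 (0.90) and Trim29 (0.90).

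Of 29 other genes of the wider Ly6 and urokinase receptor family, 12 were tested and 11 averaged at least 1 CPM. Against controls, Plaur, the urokinase receptor itself, was higher in stable tumours (log2 fold change 2.29, adjusted p = 2.58e-05) and responders (2.24, adjusted p = 1.26e-05) by edgeR. Its mean was 6.96 ± 1.69 CPM for controls, 13.3 ± 8.91 CPM for non-responders, 34.2 ± 9.30 CPM for the stable group and 32.8 ± 14.6 CPM for responders (SD). Gpihbp1, which holds lipoprotein lipase on capillary endothelium, went the other way, from 11.2 ± 2.91 CPM in controls to 7.75 ± 2.38, 2.60 ± 1.38 and 1.26 ± 0.519 CPM in non-responders, stable tumours and responders. It was lower than in controls by edgeR in stable tumours (-2.11, adjusted p = 2.2e-05) and responders (-3.10, adjusted p = 1.16e-07), and lower in responders than in stable tumours (-0.99, adjusted p = 0.0161).

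Ly6g5b was also higher than in controls in both groups (2.45 in stable tumours, 2.53 in responders) and Lypd6 was lower in both (-1.59 and -1.29). Plaur and Gpihbp1 also differed between responders and non-responders, with log2 fold changes of 1.31 (adjusted p = 0.00232) and -2.57 (adjusted p = 9.52e-06) by edgeR. Stable tumours differed from non-responders in the same directions, at 1.37 (adjusted p = 0.00933) and -1.58 (adjusted p = 0.00405) by edgeR. Against non-responders edgeR also called Lypd6 lower in responders (-1.40, adjusted p = 0.0185) and in stable tumours (-1.70, adjusted p = 0.028). Lynx1 was lower in responders than in stable tumours (-0.77, adjusted p = 0.0141) and Ly6g6c was higher (3.27, adjusted p = 0.0427) by edgeR, and with the protein-coding share in the model no gene of this list was called there. Lypd6b was higher by edgeR in responders against non-responders (2.58, adjusted p = 0.0231), and edgeR called Cd59a, Ly6g6d, Lypd3 and Lypd5 in none of the 6 comparisons. Between responders and non-responders edgeR called 2 of the 12 tested genes of the list higher and 3 lower. Over all tested genes 25.2% were higher and 23.8% lower there, so nothing is read from these counts. DESeq2 called 4 higher and 3 lower, and edgeR with protein-coding share in the model 1 higher and 1 lower. Ly6g, the neutrophil surface marker, averaged 0.0114 CPM and was not tested.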

How the data were processed

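One RNA library per tumour was analysed from 25 tumours. The authors deposited estimated counts per gene, not normalized (expected counts, 5.64% of values not whole, RSEM being named per the submitters' processing notes). They also deposited a table of RPKM values for 19522 symbols, without the gene lengths used. Per the submitters' processing notes, bcl2fastq 2.17, Trimmomatic, STAR 2.5.1, RSEM 1.2.22 and mm10 were named. The labels name both a stranded total RNA kit and polyA RNA, which was not resolved.

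Counts were rounded, filtered with filterByExpr by group and scaled by TMM. Tests used edgeR 4.0.16 in R 4.3.3 (robust quasi-likelihood, all 25 tumours, 4 group means, two-sided, Benjamini-Hochberg over 18032 genes, called under 0.05). SEs were obtained from the fold change and its F statistic. Ratios were compared by exact permutation. Correlations used log2 CPM with a prior count of 2 and 100000 permutations within groups, which can give a p no smaller than 1e-05. Replicates are separate tumours, numbered in record order, which pairs none. No 2 libraries were alike enough to be 1 library deposited more than once. On simulated counts for responder minus stable (18032 genes, 200 of them changed), the test recovered 81% of genes changed 4-fold and 53% of those changed 2-fold. Of its calls 2.19% were false. The simulated libraries did not differ in protein-coding share and had far fewer changed genes than were called in the data. That false rate therefore does not carry over to the calls given here.

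Alternatives were DESeq2 1.42.0, RLE scaling, no filter, a stricter filter (at least 1 CPM in 8 tumours, with counts averaging at least 50), protein-coding genes only, the protein-coding share as a covariate, only the groups compared, limma 3.58.1 on log2(RPKM + 1) and log2(RPKM + 0.1) over 14529 symbols with at least 0.5 RPKM in 5 tumours, Ly6c1 and Ly6c2 summed, and each tumour left out. Fits without responders 1 and 4, and correlations without the responders, were added after seeing the data.

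Members and lists were chosen with earlier results of these data known. Named genes were the members, other family genes averaging at least 1 CPM, the 3 genes most like each member (leaving out predicted genes, receptor and immunoglobulin segments, ribosomal protein genes and pseudogenes) and the 2 most abundant genes of other lists, of which 1 is not reported here. Lists were interferon gamma, type I interferon, T cell, monocyte and macrophage, endothelial, neutrophil, keratinocyte, B and plasma cell, fibroblast, melanocyte and other Ly6 family genes. Coding sequences came from GENCODE M21, using the principal transcript of each gene, a choice made after a first comparison with the longest coding sequence.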

Additional observations from a re-analysis of the deposited data

Results flagged for a closer look

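Of 28 groups of values examined (6 genes and the Ly6c2 to Ly6c1 ratio in 4 groups), 6 held a tumour whose gap to its nearest neighbour, as a share of the group's range, was above Dixon's limit. Chance gives about 1 group in 20 only where values are normally distributed. The gene values were CPM without logs, and their distribution was not tested, so 6 of 28 is not set against that rate. Ly6i was at 1.45 CPM in control 5, where the next control had 0.391 CPM. The same tumour had a log2 ratio of Ly6c2 to Ly6c1 of -0.22, where the next control had -1.76. Ly6i was at 116 CPM in non-responder 6, where the next non-responder had 19.6 CPM. Ly6c1 was at 19.7 CPM in control 2, where the next control had 11.8 CPM. Ly6d was at 13.1 CPM in control 3 and at 22.2 CPM in responder 8, where the next tumours of those groups had 2.25 and 9.35 CPM.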

How the results depend on the processing

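The 6 members kept their direction against controls in every setting run, except Ly6d. The count of members called was the same or within 1.5 times for responders and stable tumours against controls, with 3 to 4 and 4 to 4 over fits that left out 1 tumour. For responders against stable tumours, 1 member was called with no low-count filter, 0 with protein-coding share as covariate and 0 without responders 1 and 4, against 3, and 1 to 4 when 1 tumour was left out. There were 2 calls with the stricter filter, with protein-coding genes only and with only the groups compared. Leaving out stable 2, 3 or 4 or responder 1, 4, 6, 7 or 8 left 1 call. Leaving out 1 tumour gave 0 to 1 calls for responders against non-responders and for stable tumours against non-responders. Correlated pairs numbered 23 to 29 in other settings and 24 to 30 when 1 tumour was left out, and 22 of the 25 pairs passed without the responders. Ly6e with type I interferon genes missed the threshold on log2(RPKM + 1) (r = 0.54, adjusted permutation p = 0.0588). 

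The sign of small values turned in these fits. For responders against non-responders, Ly6a, Ly6c1, Ly6c2 and Ly6e were at 0.36, 0.45, 0.45 and 0.0806 with that covariate. Without responders 1 and 4, the first 3 were at 0.0222, 0.13 and 0.19. On log2(RPKM + 0.1) they were at 0.0029, 0.00022 and 0.0908, and on log2(RPKM + 1) Ly6a was at 0.0014 and Ly6c2 at 0.0807. With the stricter filter Ly6c2 was at 0.0345. When 1 tumour was left out, Ly6a ran from -0.47 to 0.17, Ly6c1 from -0.33 to 0.11 and Ly6c2 from -0.38 to 0.39. Ly6d ran from -0.37 to 0.85 for responders against stable tumours, from -0.11 to 2.174 for responders against controls and from -0.18 to 1.77 for stable tumours against controls, and was at -0.0143 for responders against stable tumours on log2(RPKM + 0.1). The log2 ratio of Ly6c2 to Ly6c1 was -0.0351 for responders against stable tumours from RPKM values, and ran from -0.0235 to 0.39 there and from -0.12 to 0.29 for stable tumours against non-responders when 1 tumour was left out. Against controls it was 1.325 for responders and 1.36 for the stable group from RPKM values, and ran from 1.86 to 2.39 for responders and from 1.64 to 2.23 for the stable group when 1 tumour was left out. The cause of these changes was not tested.

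No paired analysis was possible because the labels give no replicate numbers shared between groups. Depth limits Ly6i in controls (54.0 counts in all) and Ly6d (8 counts in the lowest library).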

Other observations

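Fibroblast genes mark the tumour stroma. Of 10 such genes, led by the collagens Col3a1 and Col1a1, edgeR called 8 higher in stable tumours than in controls and 5 in responders. Median log2 fold changes were 1.37 and 0.70, where 22.2% and 36.1% of all tested genes were higher. In responders 3 were lower than in stable tumours, where 17.8% of all genes were lower. With the protein-coding share in the edgeR model, 10 and 8 were higher than in controls, and 0 were lower in responders than in stable tumours. Their summed level ran from 3710 to 6944 CPM in controls, 6619 to 14860 CPM in non-responders, 8063 to 17490 CPM in stable tumours and 7699 to 16490 CPM in responders.

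Type I interferon genes were mostly lower in responders than in non-responders. By edgeR 13 of 20 were lower (median log2 fold change -1.02), where 23.8% of all tested genes were lower. Of 20 interferon gamma genes 5 were higher and none lower by edgeR and by DESeq2 (edgeR median 0.09), where 25.2% of all genes were higher, so that share is near the background. With protein-coding share in the edgeR model, 8 type I interferon genes were lower and 0 interferon gamma genes were higher or lower. Whether the lists differ was not tested. Ly6e, used as an interferon-inducible gene, had -0.40 in that comparison and did not pass.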
